A study of Mus musculus with 6 samples.

Results

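The histone deacetylases HDAC1 and HDAC2 have no DNA-binding part of their own and act inside multiprotein corepressor complexes. The genes examined here encode the other subunits of those complexes, in sciatic nerves from which Hdac1 and Hdac2 had been deleted in Schwann cells. They were chosen as a list of 40 gene names, of which 38 were named on the array and are described here, out of 14550 genes tested. Sap18 and Ncor1 were not analysed here. The list holds 13 SIN3 subunits (12 tested), the histone chaperones Rbbp4 and Rbbp7, which SIN3 and NuRD share, 11 further NuRD subunits, 8 genes of CoREST and REST, 4 genes of NCoR (3 tested) and Mier1 and Rere, which encode other scaffolds with the ELM2 and SANT domains that hold HDAC1 and HDAC2. NCoR is built around HDAC3 rather than HDAC1 or HDAC2. All 38 genes had log2 values of at least 4, the low-value limit, on all 6 arrays. The genes nearest to that limit were Chd5, at 4.74 to 5.20, and Rcor2, at 4.94 to 5.42, and 0 of the 38 lay below it.

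Gene expression was measured in nerves taken on postnatal day 2 from mouse pups of a mixed strain, an age at which Schwann cells, the glia of peripheral nerves, begin to make myelin. The 3 double knockout (dKO) samples carried DhhCre, in which the desert hedgehog promoter, active in the Schwann cell lineage, drives Cre recombinase, together with the HDAC1-2 dKO genotype, and the 3 control samples were littermates described as DhhCre–. Whether the control pups carried the conditional Hdac1 and Hdac2 alleles is not given in the sources used here, nor is the number of nerves in each sample. Each sample, with the perineurium (the outer sheath) removed, was hybridised to 1 Affymetrix mouse genome-wide array, so that each group has n = 3. Values are log2 expression of 1 probe set per gene. Xist, made in female cells, was at 11.55 in control 2, 11.67 in dKO 2 and 11.24 in dKO 3. On the other arrays Xist was at 4.14 to 5.31, and the Y-linked gene Eif2s3y was at 10.88 to 11.07. The groups thus differ in their mix of sexes, and the part of sex in the changes was not tested. A change is the dKO mean less the control mean and is followed by its standard error (SE) and by the p-value of limma, adjusted over all genes tested. It is called when that p-value is under 0.05.

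The SIN3 complex is a scaffold, Sin3a or Sin3b, around which the SAP, ING, ARID4 and BRMS1 proteins hold the deacetylases. NuRD joins deacetylation to nucleosome remodelling by the CHD proteins. CoREST joins it to demethylation of histone H3 by KDM1A, and the zinc finger factor REST brings CoREST and SIN3 to neuronal genes in cells that are not neurons. In Schwann cells the factor Zeb2 works with HDAC1, HDAC2 and NuRD, and the Nab proteins bring the NuRD helicase Chd4 to targets of Egr2.

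Hdac1 fell by 1.55 (SE 0.13, adjusted p = 0.000271 in limma) and Hdac2 by 1.26 (SE 0.15, adjusted p = 0.00103), with every dKO array below every control array. Hdac1 has 1 probe set, and of 3 for Hdac2 the highest change was 0.13 and the mean of all 3 fell by 0.71. Hdac3 had a change of 0.30 (SE 0.17, adjusted p = 0.243). Over all genes 22.0% were called, 12.6% higher and 9.38% lower, and the median change was 0.01. The samples hold the mixed cells of the nerve left after the perineurium was removed, so fewer cells of a type and less RNA per cell cannot be told apart. Of 3 Schwann cell markers tested (Sox10, S100b and Erbb3), S100b and Erbb3 fell, and the log2 of their summed level went from 12.66 to 13.06 in control to 11.62 to 12.13 in dKO samples. Of 5 markers of endoneurial fibroblasts 3 rose (summed level 14.67 to 14.81 in control, 14.96 to 15.02 in dKO), and of 4 pericyte markers 2 rose (11.16 to 11.33 and 11.57 to 12.01). Among 5 macrophage markers 1 rose (10.18 to 10.73 and 10.92 to 11.96), and among 5 endothelial markers 0 did (9.47 to 9.94 and 10.05 to 10.59). Of 4 markers of the perineurium, the layer that was removed, 1 rose and 1 fell (10.58 to 10.63 and 11.04 to 11.36), and of 4 neuronal markers 1, Snap25, rose (7.13 to 7.46 and 7.91 to 8.34). Markers of proliferating cells (3 tested, 12.72 to 12.94 and 12.93 to 13.02), skeletal muscle (3 tested, 5.95 to 6.72 and 5.84 to 6.29) and mast cells (2 tested, summed level of 3 genes 6.05 to 6.42 and 5.73 to 6.25) had 0 calls. The only adipocyte marker named, Adipoq, was under the limit on all 6 arrays. The part of these shifts in the changes given below was not tested.

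Of 12 SIN3 subunits, 6 were called higher in the dKO nerves. In NuRD 1 of 11 genes was called, in CoREST with REST 0 of 8 and in NCoR 0 of 3. Whether the complexes differ from each other was not tested. Of the 38 genes, 7 rose and 0 fell, against 12.6% and 9.38% of all genes, and the share of 18.4% called lies near the 22.0% called over all genes. Without adjustment, 13 of the 38 had p under 0.05, against 34.3% of all genes. Those that rose were the SIN3 genes Ing2, Sap30, Sap30l, Sin3a, Arid4a and Ing1 and the NuRD gene Cdk2ap1. The fold was 2.89 for Ing2, 2.58 for Sap30, 1.99 for Sap30l, 1.79 for Sin3a, 1.60 for Arid4a, 1.51 for Ing1 and 1.43 for Cdk2ap1. The count of 7 became 4 without control 1, dKO 1, dKO 2 or dKO 3. Only Ing2, Sap30 and Arid4a, of these 7, passed whichever 1 of the 6 arrays was left out. The median change of the 38 was 0.26, and 26 had a change above 0, or 68.4% against 50.6% of all genes.

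**Figure D1:**
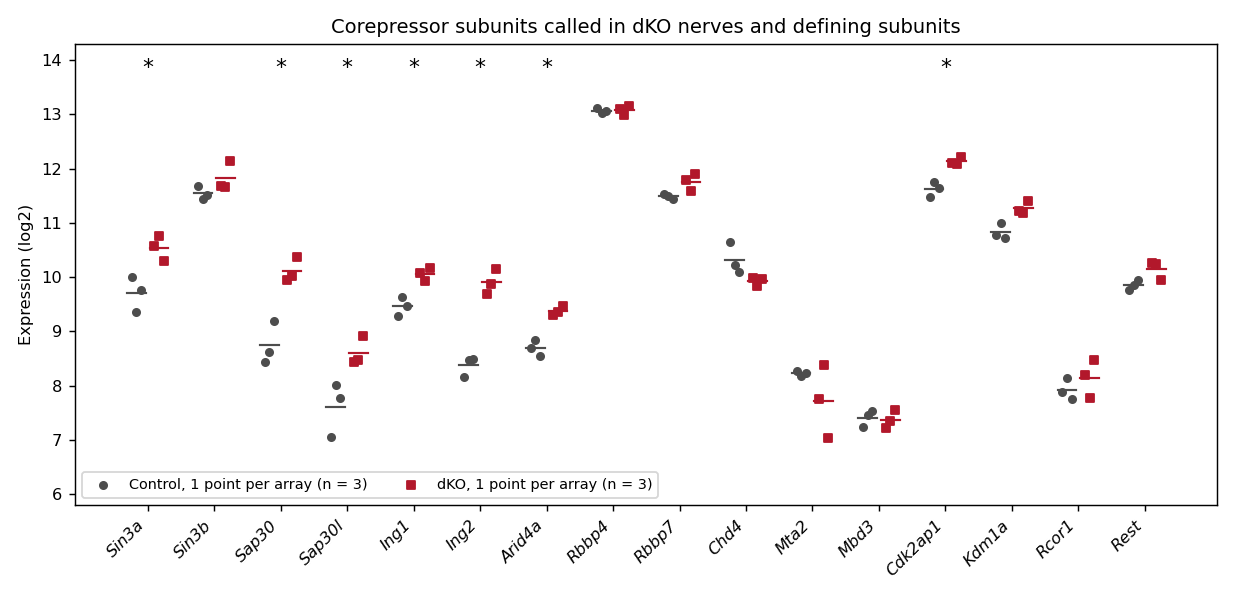
Log2 expression on each array for the 7 subunits called in dKO nerves (asterisks) and for defining subunits, with 1 point per array, control in grey and dKO in red, and lines at the group means. Control and dKO points are apart for the called Sin3a, Sap30, Sap30l, Ing1, Ing2, Arid4a and Cdk2ap1. They are also apart for Rbbp7, Chd4, Kdm1a and Rest, which were not called, and lie on top of each other for Rbbp4, at 12.99 to 13.16.

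Of the 12 SIN3 genes tested, 6 rose and 0 fell, against 12.6% and 9.38% of all genes. Their median change was 0.56, and 11 of the 12 had a change above 0, against 50.6% of all genes. The count of 6 went to 4 without control 1, dKO 1, dKO 2 or dKO 3, and to 5 without control 2 or control 3. Across arrays the median of the 12 genes, relative to the control mean, was -0.18, 0.01 and 0.10 in the control samples and 0.53, 0.60 and 0.65 in the dKO samples. The same median over all genes lay between -0.04 and 0.08 on the 6 arrays. On dKO and control arrays the values did not overlap for 8 of the 12, all higher, against 22.6% of all genes.

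The scaffold gene Sin3a was at 10.00, 9.36 and 9.76 in control samples 1 to 3 and at 10.57, 10.76 and 10.30 in dKO samples 1 to 3. All dKO values were above all control values, with control 2 the lowest, and the change was 0.84 (SE 0.20, adjusted p = 0.0208 in limma). Leaving out control 2, dKO 1 or dKO 2 ended the call (adjusted p up to 0.0755). The other 2 Sin3a probe sets rose by 1.03 and 0.92, so that all 3 were called when adjusted over all probe sets, of which 11.7% were called. Sin3b, the alternative scaffold, was at 11.69, 11.44 and 11.51 in control and 11.69, 11.67 and 12.15 in dKO samples. Its groups overlapped, with dKO 3 the highest, and its change of 0.29 (SE 0.17, 95% interval -0.11 to 0.69) was not called (adjusted p = 0.279 in limma). The 5 Sin3b probe sets had changes of -0.28 to 0.29.

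Ing2 encodes a subunit whose PHD finger binds trimethylated histone tails at active promoters. It was at 8.16, 8.48 and 8.49 in control samples and at 9.69, 9.88 and 10.15 in dKO samples. The lowest dKO value exceeded the highest control value by more than the range of either group, and the change of 1.53 (SE 0.17, adjusted p = 0.000727 in limma) was the largest of the 38. Its paralogue Ing1, with the same kind of finger, was at 9.29, 9.64 and 9.46 in control and 10.08, 9.93 and 10.17 in dKO samples. The groups were apart and Ing1 rose by 0.59 (SE 0.15, adjusted p = 0.0245), but did not pass once control 1, control 3, dKO 1 or dKO 3 was left out (adjusted p up to 0.0743). The other 2 Ing1 probe sets above the limit had changes of 0.39 and 0.10, neither of them called, and the mean of all 4 probe sets had a change of 0.23 (adjusted p = 0.189).

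Sap30 encodes a small adaptor that strengthens the contact between SIN3 and its deacetylases. It was at 8.44, 8.61 and 9.20 in control samples and at 9.95, 10.03 and 10.38 in dKO samples. No values overlapped, control 3 being the highest of its group, and Sap30 rose by 1.37 (SE 0.22, adjusted p = 0.00361 in limma). The related gene Sap30l was at 7.04, 8.02 and 7.78 in control and 8.43, 8.48 and 8.91 in dKO samples. Control 1 was low, and the change of 0.99 (SE 0.26, adjusted p = 0.0290) became 0.71 without it. The Sap30l call was lost without control 1 or any of the dKO arrays (adjusted p up to 0.0851). Sap30, Sap30l and Ing2 each had a single named probe set.

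Arid4a, a chromatin-binding subunit that also binds the retinoblastoma protein, was at 8.70, 8.84 and 8.55 in control samples and 9.30, 9.36 and 9.46 in dKO samples. Both groups were tight and apart, and it rose by 0.68 (SE 0.14, adjusted p = 0.0107 in limma). Its other 2 probe sets had changes of 0.52 and 0.31, neither called. Arid4b, its paralogue, had a change of 0.30 (SE 0.15, adjusted p = 0.186) with groups that did not overlap. Suds3, a subunit that dimerises the complex, and Sap130, a larger adaptor, had changes of 0.53 (adjusted p = 0.0895) and 0.41 (adjusted p = 0.0979). Suds3 passed without dKO 1 (adjusted p = 0.0496) and with its 2 probe sets averaged (adjusted p = 0.0486). The BRMS1 family genes Brms1l and Brms1 had changes of 0.33 and -0.04, the latter the only one of the 12 below 0.

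The sequence before the transcription start is shown for the SIN3 genes that rose and have a single start in the RefSeq promoter table (mouse build GRCm38.p6), so that their upstream regions can be compared. Each run is 250 bases, from 5′ to 3′ in the direction of the gene and ending at the base before the start. Ing2 lies at chr8:47675160-47675409 (minus strand), Sap30 at chr8:57487861-57488110 (minus strand) and Sap30l at chr11:57801387-57801636 (plus strand). Capitals mark matches, on either strand, to GGGCGG (the GC box), to CCAAT and to TTTNNCGC (the E2F core).
Ing2: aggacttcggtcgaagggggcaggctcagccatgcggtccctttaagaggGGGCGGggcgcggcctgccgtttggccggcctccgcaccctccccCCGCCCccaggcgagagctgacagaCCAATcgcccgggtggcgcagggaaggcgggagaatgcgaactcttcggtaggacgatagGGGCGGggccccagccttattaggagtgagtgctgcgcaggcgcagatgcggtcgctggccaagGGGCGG
Sap30: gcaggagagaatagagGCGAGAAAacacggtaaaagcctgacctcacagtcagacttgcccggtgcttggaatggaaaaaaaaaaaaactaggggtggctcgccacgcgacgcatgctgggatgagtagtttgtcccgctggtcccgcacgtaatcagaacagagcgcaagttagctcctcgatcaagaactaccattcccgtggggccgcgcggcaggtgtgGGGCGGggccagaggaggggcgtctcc
Sap30l: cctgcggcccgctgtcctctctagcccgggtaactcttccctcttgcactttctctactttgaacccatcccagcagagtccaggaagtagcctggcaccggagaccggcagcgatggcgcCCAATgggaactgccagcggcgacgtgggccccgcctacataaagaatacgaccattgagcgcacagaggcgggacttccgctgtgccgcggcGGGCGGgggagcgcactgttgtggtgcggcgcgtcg
Ing2 held 4 GC boxes and 1 CCAAT box, Sap30 held 1 GC box and 1 E2F core, and Sap30l held 1 GC box and 1 CCAAT box, with no overlap between matches. Of all 32851 windows of the same length in the table, 32.7% held a GC box, 33.8% a CCAAT box and 4.28% an E2F core. An E box (CACGTG, in 6.02% of all windows), a CRE (TGACGTCA, in 1.55%) and an ETS core (CCGGAAG, in 6.91%) had no match in these 3 windows. The ratio of observed to expected CpG was 0.80 for Ing2, 0.874 for Sap30 and 0.904 for Sap30l. Over the 45 windows listed for 31 of the 38 genes, whether they rose or not, its median was 0.855, against 0.373 over all windows, and 38 held a GC box. All windows belong to 27025 genes, more than the 14550 tested, and no such values were computed over the tested genes alone. Windows of 1 gene with several starts can overlap.

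The shared chaperones were high and close between groups. Rbbp4, which binds histone tails, was at 13.12, 13.02 and 13.06 in control samples and 13.11, 12.99 and 13.16 in dKO samples. The groups overlapped throughout and the change was 0.02 (SE 0.13, 95% interval -0.28 to 0.32, adjusted p = 0.931 in limma). Its 4 probe sets had changes of -0.27 to 0.02. For the close relative Rbbp7 the control values were 11.54, 11.49 and 11.45 and the dKO values 11.79, 11.59 and 11.90. These did not overlap, but the change of 0.27 (SE 0.14, 95% interval -0.06 to 0.59) was not called (adjusted p = 0.221). The probe sets used for Rbbp4, Rbbp7 and Cdk2ap1 are of the kind, marked x in their names, whose probes can match other transcripts.

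Within NuRD, 1 of 11 genes rose (9.09%) and 0 fell, with a median change of 0.13. The share that rose lies near the 12.6% of all genes called higher, and 9.38% of all genes were called lower. Cdk2ap1, a small subunit also known as an inhibitor of CDK2, was at 11.47, 11.76 and 11.64 in control samples and at 12.11, 12.09 and 12.21 in dKO samples. The groups were apart and the dKO values close together, with a change of 0.51 (SE 0.14, adjusted p = 0.0324 in limma). This call was lost when any 1 of the 6 arrays was left out (adjusted p 0.0554 to 0.0943) and with arrays centred on their medians. The 3 Cdk2ap1 probe sets had changes of 0.44 to 0.51.

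The helicase gene Chd4 was at 10.64, 10.23 and 10.09 in control samples and 9.98, 9.84 and 9.96 in dKO samples. All dKO values were below all control values, control 1 being the highest, with a change of -0.39 (SE 0.17, 95% interval -0.78 to 0.004, adjusted p = 0.150 in limma). The 3 Chd4 probe sets had changes of -0.51 to -0.34, and 0 of them were called. Its relatives Chd3 and Chd5 had changes of 0.09 and 0.13. Mta2, a scaffold of the deacetylase module, was at 8.26, 8.18 and 8.24 in control and 7.76, 8.38 and 7.03 in dKO samples. The dKO values spread widely, from the lowest to the highest of all 6, around a change of -0.50 (SE 0.30, adjusted p = 0.281). Mta1 and Mta3, the other scaffolds of that module, had changes of 0.26 and 0.30. With all their probe sets averaged these were -0.03 and 0.09.

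Mbd2 and Mbd3 are the alternative methyl-CpG-binding domain subunits of NuRD, and only MBD2 binds methylated DNA strongly. Mbd2 was at 10.76, 11.28 and 11.01 in control and 11.60, 11.47 and 11.52 in dKO samples. Its groups were apart, with a change of 0.51 (SE 0.16), and it lay just outside the threshold (adjusted p = 0.0588 in limma). It passed with a low-value limit of 6, with an intensity trend in the variance (adjusted p = 0.0269) and without control 2 (0.0446). Mbd3 was at 7.23, 7.46 and 7.53 in control and 7.22, 7.34 and 7.55 in dKO samples, which overlapped, with a change of -0.03 (SE 0.15). The zinc finger subunits Gatad2a and Gatad2b, which bridge the MBD and CHD proteins, had changes of 0.35 and -0.003. All 5 Gatad2a probe sets had changes above 0 (0.27 to 0.69), with 0 called.

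**Figure D2:**
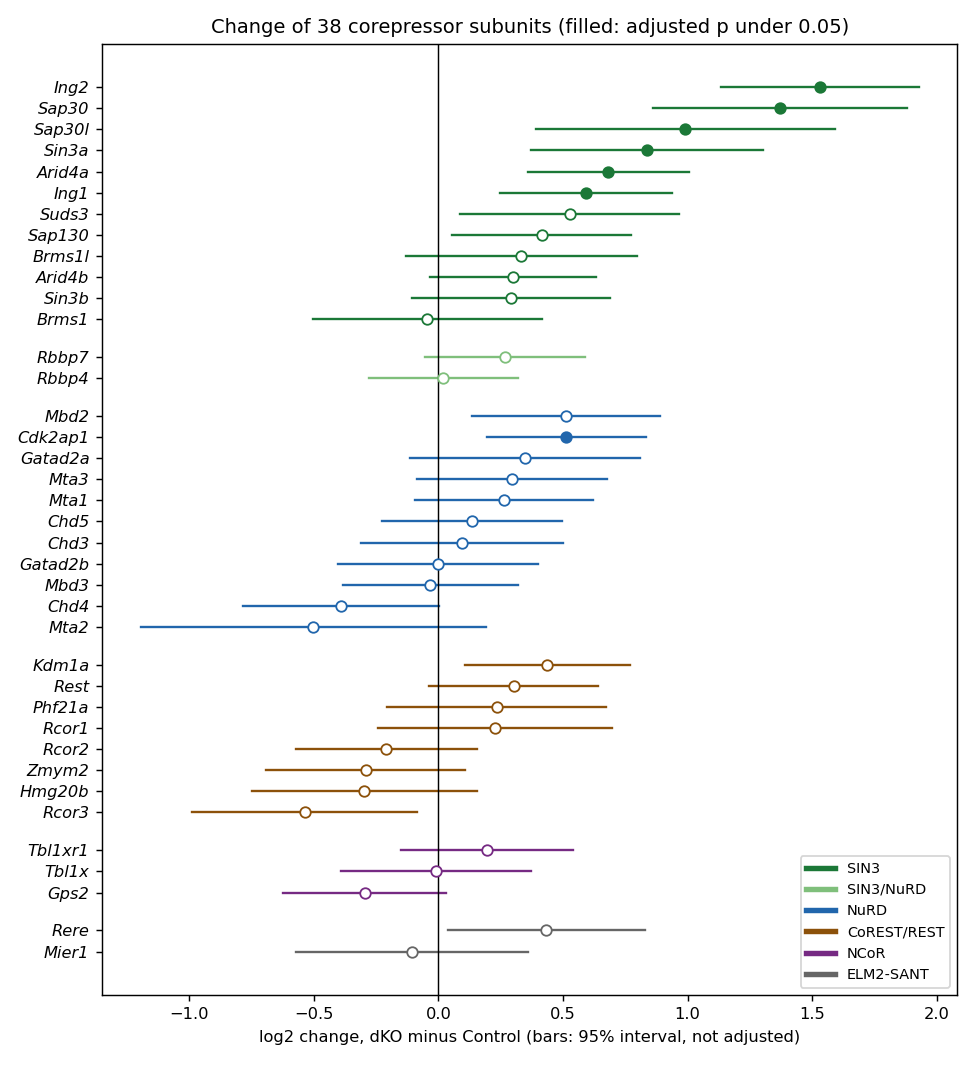
Log2 change (dKO minus control) of each of the 38 subunits by complex, with its 95% interval, which is not adjusted for the number of genes. Filled circles passed the adjusted threshold. The SIN3 genes run from -0.04 to 1.53 and the CoREST and REST genes from -0.54 to 0.44.

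Of the 8 CoREST and REST genes, 0 were called, against 22.0% of all genes. An unadjusted p under 0.05 was found for 2 of the 8, against 34.3% of all genes. The median change of the 8 was 0.01, with 4 above and 4 below 0. Kdm1a, the lysine demethylase of the complex, was at 10.77, 11.00 and 10.73 in control samples and 11.22, 11.19 and 11.40 in dKO samples. The groups did not overlap, and the change of 0.44 (SE 0.14) missed the threshold (adjusted p = 0.0658 in limma), which it passed with an intensity trend (0.0281). The scaffold Rcor1 was at 7.88, 8.14 and 7.75 in control and 8.19, 7.78 and 8.48 in dKO samples. These overlapped, with a change of 0.23 (SE 0.20, adjusted p = 0.475). Of the 3 Rcor1 probe sets 2 had changes below 0, and the mean of all had -0.06. Rcor3, another scaffold, had the lowest change of the 38, at -0.54 (SE 0.20, adjusted p = 0.0914), from 8.09, 8.01 and 7.94 in control to 7.72, 7.67 and 7.05 in dKO samples. Its 6 probe sets did not point one way. Of these, 5 had changes of -0.54 to -0.05 and 1 had 0.58, and 0 were called. Their mean had a change of -0.12.

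Rest was at 9.76, 9.85 and 9.94 in control samples and 10.26, 10.25 and 9.95 in dKO samples. The groups all but touched, as dKO 3 lay just above the highest control value, and the change of 0.30 (SE 0.15, 95% interval -0.04 to 0.64) was not called (adjusted p = 0.190 in limma). Phf21a, which binds unmethylated histone tails, had a change of 0.23, but 3 of its 4 probe sets had changes below 0 and the mean of all had -0.13. Rcor2, Hmg20b and Zmym2 had changes of -0.21, -0.30 and -0.29. In NCoR, Tbl1xr1 and Tbl1x, which encode beta-propeller subunits, had changes of 0.19 and -0.01, and Gps2 had -0.30 (SE 0.14, adjusted p = 0.185) with groups apart. The scaffold genes Rere and Mier1 had changes of 0.43 (adjusted p = 0.113) and -0.11. The other Rere probe sets had changes of -0.34 and -0.03, and the mean of all had 0.02.

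For 30 of the 31 uncalled genes the 95% interval of the change lay inside a log2 change of 1 in either direction. Mta2 was the exception, with an interval of -1.19 to 0.19. Counting called and uncalled genes, 14 of the 38 had all dKO values above all control values, against 22.6% of all genes, and 3 (Chd4, Rcor3 and Gps2) had them below, against 18.4%. In either direction the share of all genes was 40.9%.

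The 38 genes had 103 probe sets, of which 101 were above the limit and 9 were called, beside 11.7% of all probe sets, a share that is not exceeded. All 9 were higher, 3 of them of Sin3a and 1 each of the other 6 genes. Of 27 genes measured by several such probe sets, the probe sets of 13 had changes of 1 sign and those of 14 had both signs. Sin3a was the only gene with more than 1 called.

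**Figure D3:**
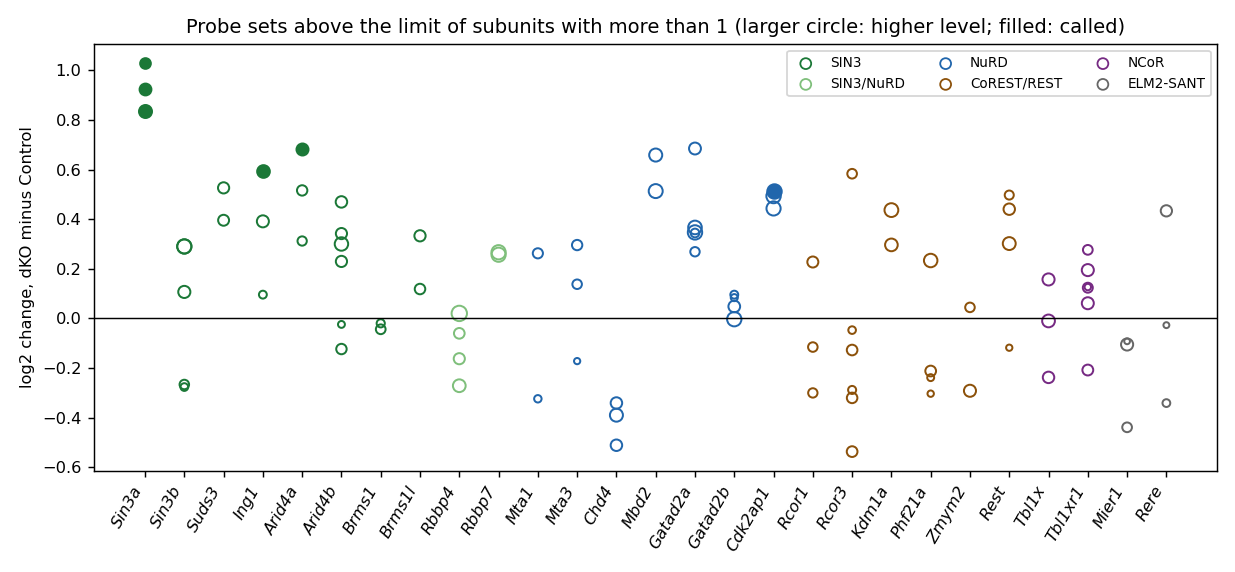
Log2 change (dKO minus control) of each probe set above the limit, for the 27 genes that have several. Larger circles have a higher mean level and filled circles were called after adjustment over all probe sets. The 3 probe sets of Sin3a lie together at 0.84 to 1.03, and those of Rcor3 run from -0.54 to 0.58.

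Paralogues were then compared within each array, by subtracting the log2 value of 1 from that of the other, in 12 pairs. The dKO minus control change of such a difference is the change of 1 gene less that of its paralogue. The gene with the larger change came first in each pair, so that all 12 values are above 0 by construction. This value was 0.94 for Ing2 over Ing1, 0.55 for Mbd2 over Mbd3 and 0.38 for Arid4a over Arid4b. It was also 0.38 for Sap30 over Sap30l, 0.35 for Gatad2a over Gatad2b and 0.25 for Rbbp7 over Rbbp4. In these 6 pairs the differences of the groups did not overlap, and each had p = 0.1 in the exact two-sided permutation test, the smallest p that 3 against 3 arrays allow (0.2 adjusted over the 12 pairs). Among single genes 40.9% did not overlap in either direction, and the share among pairs of other genes was not computed. In the other pairs the groups overlapped, with values of up to 0.76, for Mta1 over Mta2 and for Rcor1 over Rcor3. The difference between Sin3a and Sin3b went from -1.84 ± 0.21 in control to -1.29 ± 0.49 in dKO samples (exact permutation p = 0.3, 0.36 adjusted over the pairs). Since no pair could reach 0.05 in this test, it does not settle whether the changes of any pair differ, that of Sin3a and Sin3b included.

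**Figure D4:**
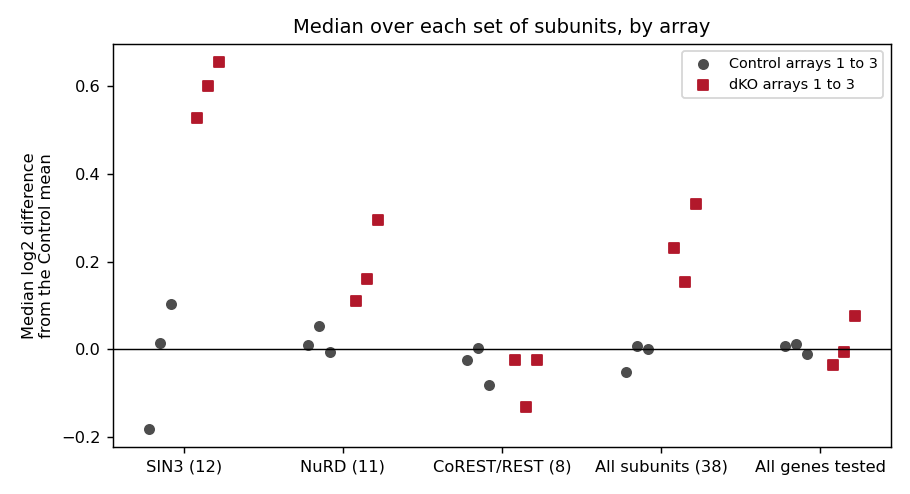
Median over the subunits of a complex of the log2 difference from the control mean, for each array, with control in grey and dKO in red and the number of genes in brackets. The dKO arrays lie at 0.53 to 0.65 for SIN3 and at -0.13 to -0.02 for CoREST and REST.

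Further genes of these complexes, from a list of 22 of which 17 were tested, gave 2 higher and 1 lower, beside 12.6% and 9.38% of all genes, with a median change of 0.11. Ctbp2, a corepressor found with CoREST, was at 8.67, 8.64 and 8.76 in control and 9.31, 9.47 and 9.47 in dKO samples. The groups were tight and apart, and it rose by 0.73 (SE 0.13, adjusted p = 0.00589 in limma) with both of its probe sets called. Its paralogue Ctbp1 had a change of 0.11. Zfp217, a zinc finger partner of CoREST, rose by 0.65 (SE 0.14, adjusted p = 0.0127), a call lost without dKO 2 (0.0516). Cdk2ap2, the paralogue of Cdk2ap1, fell by 0.46 (SE 0.14, adjusted p = 0.0464), a call lost without any 1 of the 6 arrays, with an intensity trend and with its 2 probe sets averaged.

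Of 26 genes for factors that recruit these complexes, 19 were tested, 2 rose and 0 fell, beside the same 12.6% and 9.38%. Zfpm2, which brings NuRD to GATA factors, was at 4.18, 4.41 and 5.08 in control and 6.58, 6.77 and 6.98 in dKO samples. It rose from near the limit by 2.22 (SE 0.24, adjusted p = 0.000610 in limma), on 1 of its 2 probe sets, the other having a change of 0.40 and the mean of both 1.31. Mnt, a SIN3-binding partner of MAX, rose by 0.48 (adjusted p = 0.0432), a call lost without any 1 of the 6 arrays, with arrays centred on their medians and with its probe sets averaged (change 0.09). Zeb2 was at 12.21, 11.86 and 11.79 in control and 11.56, 11.44 and 11.59 in dKO samples. All dKO values were lower, and the change of -0.42 (SE 0.16, adjusted p = 0.0937) was not called. It passed with an intensity trend (0.0402). The 5 Zeb2 probe sets had changes of both signs, from -0.745 to 0.207, and 1 of them was called, lower. Zeb1, its paralogue, had a change of 0.44 (adjusted p = 0.0550), and was called higher with an intensity trend (0.0220) and with a low-value limit of 6. Nab1 and Nab2 had changes of 0.16 (SE 0.17) and -0.74 (SE 0.45, adjusted p = 0.290), with Nab2 spread from 5.75 to 7.61 in control samples. Without control 3, the lowest of these, Nab2 was called lower, with a change of -1.28 (adjusted p = 0.0230). The other fits with 1 array left out gave no call, with a change as small as -0.35 and adjusted p up to 0.643.

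Known REST target genes moved in both directions. Of 24 listed, 18 were tested, 6 rose and 1 fell, beside 12.6% and 9.38% of all genes, with a median change of 0.19. The calcium channel gene Cacna1b was at 4.01, 4.41 and 3.46 in control and 9.46, 9.03 and 9.91 in dKO samples. It was near the limit in control samples and well above it on all dKO arrays, and with the 1 control value under the limit set to 4 it was at least 40.2-fold higher. The fitted change, which is no bound, was 5.51 (SE 0.29, adjusted p = 4.61e-05 in limma). Of 4 probe sets 3 were called, and the mean of all 4 had a change of 3.14. Stmn3, which encodes a microtubule-binding stathmin of neurons, was at 7.39, 6.70 and 6.70 in control and 8.99, 9.07 and 10.57 in dKO samples. It was higher on all dKO arrays, highest on dKO 3, with a change of 2.61 (SE 0.41, adjusted p = 0.00319) and both probe sets called. Syn1, a synaptic vesicle protein gene, was at 3.92, 4.05 and 3.85 in control and 5.52, 5.90 and 6.43 in dKO samples. It was called (adjusted p = 0.000725), and with the 2 control values under the limit set to 4 it was at least 3.83-fold higher. Cacna1b and Syn1 reached the limit on 3 arrays only with dKO arrays counted, as 1 control value of Cacna1b and 2 of Syn1 lay under it. Their passing the filter thus depended in part on their dKO values, and their control levels are at or near the floor. Snap25, a gene of the vesicle fusion machinery, rose by 1.45 (SE 0.19, adjusted p = 0.00148), with both probe sets called.

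The other REST targets that rose were Kcnh2, a potassium channel gene (1.28, SE 0.34, adjusted p = 0.0300 in limma), and the glutamate receptor gene Gria2 (0.88, SE 0.27, adjusted p = 0.0499). Kcnh2 did not pass once control 1, control 2 or dKO 3 was left out (adjusted p up to 0.0910). Gria2 did not pass once control 1, control 2, dKO 1 or dKO 2 was left out (up to 0.145), nor with no low-value filter or with arrays centred on their medians. Syp, which encodes the vesicle protein synaptophysin, fell by 0.98 (SE 0.16, adjusted p = 0.00419), and the mean of its probe sets fell by 0.46. Tubb3, Celsr3, Chga and Stmn2 had changes of -0.05, -0.07, 0.20 and 0.46 and did not pass. Bdnf, Calb1, Vgf and Scg2 were too low to be tested. The neuronal markers Elavl3, Elavl4 and Prph had changes of -0.26, 0.48 and 0.54 and did not pass.

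**Figure D5:**
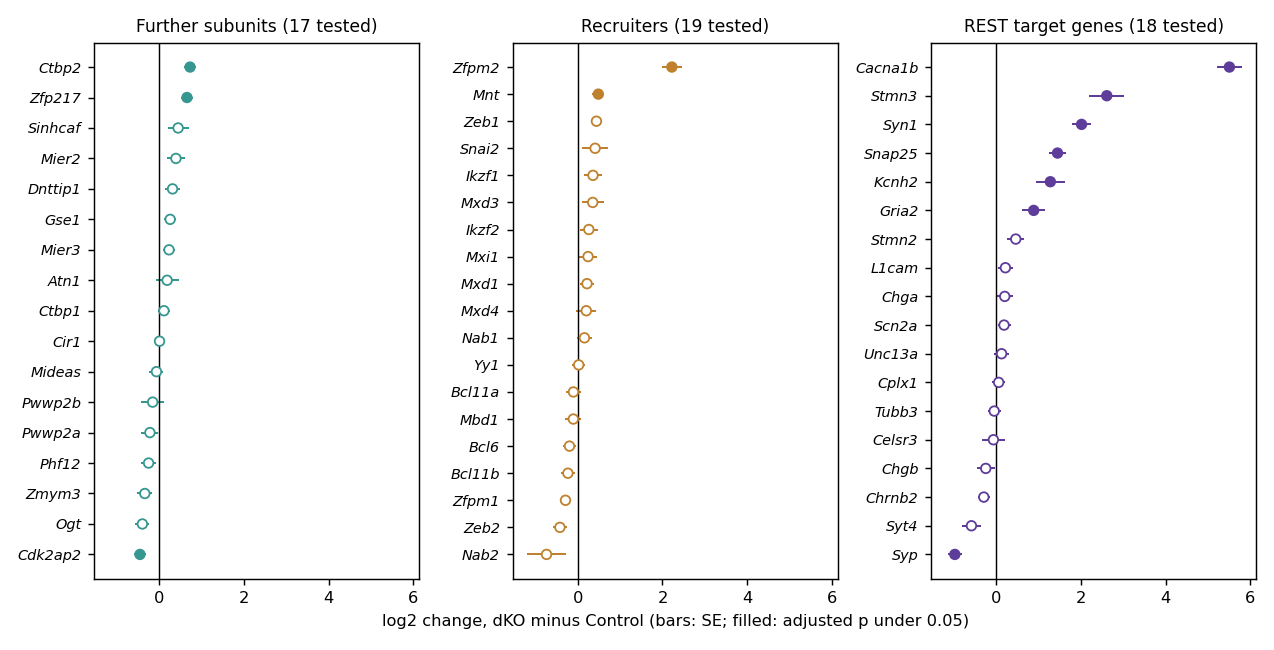
Log2 change (dKO minus control, bars are SE) of the tested genes of the 3 further lists, with filled circles for genes past the adjusted threshold. The REST target genes run from -0.98 for Syp to 5.51 for Cacna1b.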

How the data were processed

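The deposited table holds log2 expression per probe set for 6 arrays, made by the authors with GCOS 1.2 and GCRMA, per the submitters' processing notes; settings are not given in the sources used here. That the scale is log2 was inferred from the range, 1.66 to 14.94. The arrays have equal distributions (largest difference 0.01 at a given rank), which removes any shift common to all genes. Groups and replicate numbers came from the titles. The series text counts 3 mutants and 3 littermates, which reads as 1 pup per sample, but the labels do not say whether RNA was pooled.

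Of 45101 probe sets, 34958 had 1 gene symbol in the platform annotation, 932 had more than 1, and 9211 have no name here. Gene IDs led to current symbols in a RefSeq table (GRCm38.p6). The probe set with the highest mean over the 6 arrays stood for each of 18194 genes, and 14550 genes with log2 of at least 4 on at least 3 arrays were tested with limma 3.58.1 in R 4.3.3 (lmFit, eBayes, no covariates, Benjamini-Hochberg adjustment over all genes, threshold 0.05, two-sided). Intervals are unadjusted. Summed marker levels are the log2 of summed linear values.

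The subunits and lists were chosen with earlier results of these data known. The rule for named genes gave full values to called subunits and to 10 defining ones (an 11th, Ncor1, was not analysed here), and to up to 4 called genes of each further list, with Hdac1, Hdac2, Hdac3, Zeb2, Nab1 and Nab2 named in any case. Other genes named were chosen after their values were seen, as were the paralogue pairs and the promoter windows. The fit was tested on simulated data. The alternatives and their effect are given at the end.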

Additional observations from a re-analysis of the deposited data

How the results depend on the processing

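In all, 12 alternatives were run: no low-value filter, a limit of 6, the mean of all probe sets, arrays centred on their medians, an intensity trend, a replicate block, and each array left out. The number of the 38 subunits called higher was 4 to 6 with 1 array left out and 5 to 9 under the others, and 0 were called lower in any. For SIN3 the number higher was 4 to 5 with 1 array left out and 5 to 6 otherwise. Over all genes, 1246 to 1585 were called higher and 891 to 1331 lower with 1 array left out, with 891 without control 2. A replicate block gave 5 subunits higher, 5 of them in SIN3, and 1501 genes higher and 1056 lower over all genes. Whether the replicate numbers pair the samples is not given. Same-numbered samples had correlations of 0.04, -0.12 and -0.23 between their deviations from the group means. With 3 arrays per group such correlations can neither show nor exclude pairing. The calls of Ing1 and Cdk2ap1 were lost under that block, as were those of Cdk2ap2, Mnt and Gria2. Of the 7 called subunits, 4 lost their call under some alternative, 0 changed sign, and the cause was not tested. Of the 31 uncalled, 3 (Suds3, Mbd2 and Kdm1a) passed under some alternative and 10 changed sign under some, without a call. A dim Ing1 probe set, under the limit, had a change of -0.17 (adjusted p = 0.639 over all probe sets). Having 3 arrays per group and equal distributions on all arrays limit what can be seen.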
